A study of Mus musculus with 7 samples.

Results

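The genes described here build the spectrin-ankyrin membrane skeleton, the protein mesh on the inner face of the plasma membrane. They are Sptan1 (alpha spectrin), Sptbn1 and Sptbn4 (beta spectrins), Ank1, Ank2 and Ank3 (ankyrins), Epb41l1 and Epb41l3 (relatives of erythrocyte protein 4.1) and Add1 (alpha adducin), 9 of the 54309 genes in the deposited table. They were chosen by function around Sptbn1, and Sptbn1 was picked because it differed strongly between the 2 groups of these same samples. The differences between the groups are therefore given for the 9 genes as a description, with no p-value for any of them.

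The study asked how the time of day bears on the regrowth of axons. RNA was sequenced from L4 to L6 dorsal root ganglia, which house the cell bodies of sensory neurons, taken 72 h after an injury to the sciatic nerve. All mice were labelled male C57BL/6 of 6 to 8 weeks, with no transgene or drug named. The groups were ZT20 (4 samples) and ZT8 (3 samples), where ZT, zeitgeber time, counts hours in the light-dark cycle. The injury and the dissection fell at the same ZT, so their parts cannot be told apart, and uninjured ganglia were not analysed here. Ganglia were dissociated with enzymes and the cells passed through an albumin gradient to enrich neurons, so the values come from dissociated, enriched cells rather than from intact ganglia. The labels do not say whether each sample was a separate animal or a pool. The p-values given below measure the spread between these samples, which may be partly technical.

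The values are TPM, a transcript abundance scaled by transcript length and by library total, and their sequencing depth is unknown. ZT8 replicate 2 stood apart: 18297 genes were above 0 in it, against 22541 to 25238 in the other 6 samples. Y-linked transcripts were at or near 0 in ZT20 replicates 3 and 4, while ZT20 replicate 2 had Xist together with Y-linked transcripts, which goes against the male label of these 3 libraries. Neuron markers were abundant in every sample, summing to 13716 to 15094 TPM at ZT20 and 11415 to 14547 TPM at ZT8, and 2 of 10 were higher at ZT20 in the limma test used below and none lower. Satellite glia markers summed to 7493 to 9157 TPM at ZT20 and 12764 to 15483 TPM at ZT8, with 3 of 7 lower at ZT20 and 2 of 7 with a difference above 0, and most of that sum was Apoe (6261 to 7615 TPM at ZT20 and 10623 to 13557 TPM at ZT8). In such bulk samples, fewer cells of a type and less RNA per cell cannot be told apart.

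Spectrin is a long rod made of alpha and beta chains that pair side by side and join head to head into tetramers. The tetramers are tied together by short actin filaments at junctions held by protein 4.1 and adducin, and ankyrins link the beta chains to channels and adhesion molecules in the membrane. In axons this lattice repeats as evenly spaced actin rings, gives the axon its resistance to stretch, and carries the ankyrin-G scaffold of the initial segment and the nodes of Ranvier. After axon injury, calpains cut spectrin.

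All 9 genes had a higher mean at ZT20 than at ZT8, and 9821 of the 14800 genes tested had a log2 difference above 0. In 8 of the 9, every ZT20 sample lay above every ZT8 sample, the exception being Sptbn4, and 24.5% of the 14800 genes tested were separated in this direction. Only genes averaging 1 TPM or more across the 7 samples were tested, and all 9 were among them. Differences are given as ZT20 minus ZT8 on the scale of log2(TPM + 1), with the standard error (SE) of the limma fit. Means are given ± SD over the samples of a group (n = 4 at ZT20, n = 3 at ZT8). The median difference over the 9 genes was 1.17, beside 0.23 over all genes tested. At an adjusted p under 0.05, 7 of the 9 passed, all higher at ZT20, beside 12.8% of all tested genes higher and 3.61% lower (16.4% in either direction). Because the contrast chose the genes, nothing is read from these counts.

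**Figure D1:**
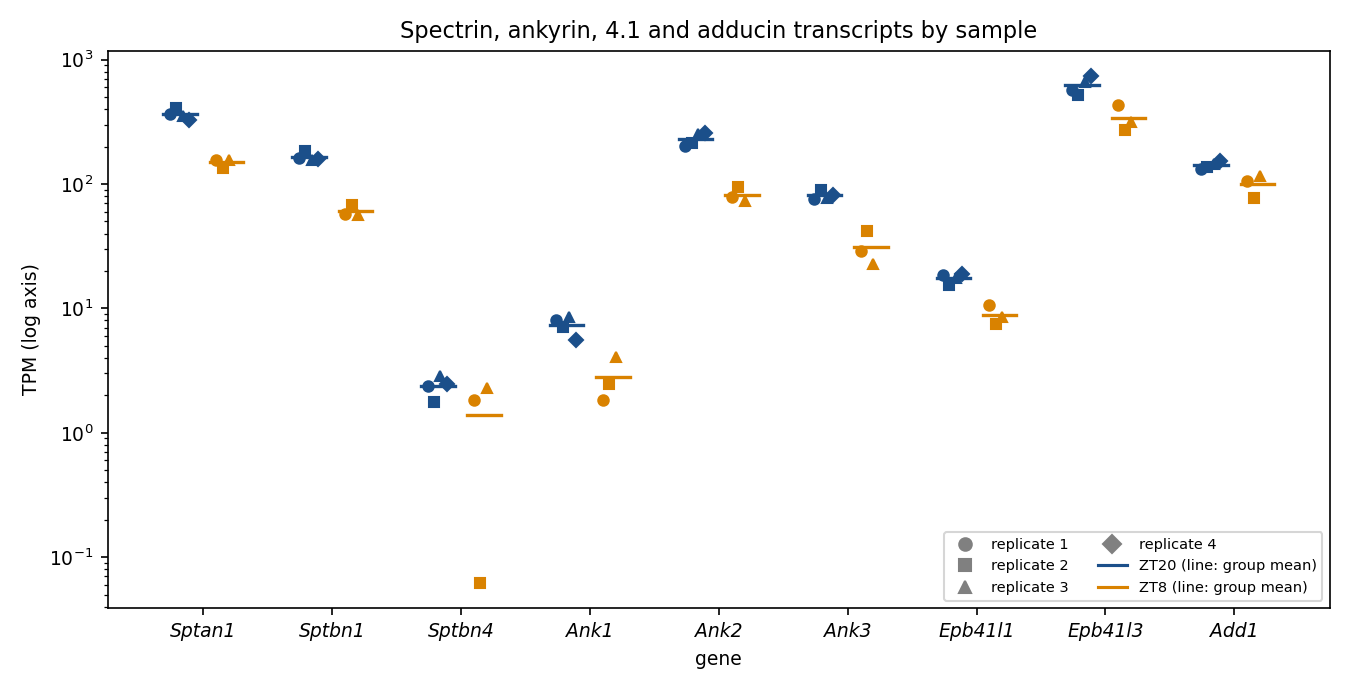
TPM of the 9 skeleton genes in each sample on a log axis, ZT20 in blue and ZT8 in orange, with 1 symbol per replicate number and a line at the group mean. The groups are separate for every gene except Sptbn4, whose ZT8 replicate 2 lies at 0.0625 TPM.

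Sptan1 (ENSMUSG00000057738, chromosome 2) encodes alpha-II spectrin, the alpha chain used outside red blood cells. It stood at 367, 410, 355 and 330 TPM in ZT20 replicates 1 to 4 and at 156, 134 and 157 TPM in ZT8 replicates 1 to 3. The groups did not overlap, and the lowest ZT20 sample was 2.10 times the highest ZT8 sample. The means were 365 ± 33.2 TPM at ZT20 against 149 ± 13.1 TPM at ZT8, a fold of 2.45 and a log2 difference of 1.29 (SE 0.12).

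Sptbn1 (ENSMUSG00000020315, chromosome 11) encodes beta-II spectrin, the partner of alpha-II along the axon shaft. Its values were 161, 185, 157 and 158 TPM in ZT20 replicates 1 to 4 and 57.7, 68.2 and 56.1 TPM in ZT8 replicates 1 to 3. ZT20 replicate 2 was the highest of its group and ZT8 replicate 2 the highest of its own, and the gap between the groups was wider than either spread. The mean was 165 ± 13.1 TPM at ZT20 against 60.7 ± 6.54 TPM at ZT8, a fold of 2.72. The log2 difference was 1.43 (SE 0.12), which was 1.20 above the median of all genes and ranked 359th of 14800 from the most positive.

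Sptbn4 (ENSMUSG00000011751, chromosome 7) encodes beta-IV spectrin, which anchors ankyrin-G at the axon initial segment and at nodes. It was near the floor of the filter, at 2.38, 1.77, 2.84 and 2.47 TPM in the 4 ZT20 samples and 1.85, 0.0625 and 2.30 TPM in the 3 ZT8 samples. The groups overlapped, since 2 of the 3 ZT8 samples lay above the lowest ZT20 sample. The log2 difference was 0.64 (SE 0.40). It was 0.13 without ZT8 replicate 2 or with quantile normalization, 0.30 with scaling to the neuron markers, 0.33 with array weights and 1.42 with a pseudocount of 0.1.

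The alpha chain was compared with the beta chains within each sample. The beta spectrin genes Sptb, Sptbn1, Sptbn4 and Sptbn5 together reached 172 ± 11.5 TPM at ZT20 against 63.9 ± 4.11 TPM at ZT8, a fold of 2.69. The ratio of Sptan1 to the sum of these 4 genes was 2.12 ± 0.0809 at ZT20 and 2.35 ± 0.345 at ZT8. The overlap came from ZT8 replicate 2 (1.95), since ZT8 replicates 1 and 3 (2.52 and 2.58) lay above all 4 ZT20 samples (2.003 to 2.172), and the ZT8 mean was 2.55 without it. A ratio within a sample is untouched by any scaling of that sample.

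Sptbn1 made up most of the summed TPM of these 4 genes in every sample, with a mean of 96.0% at ZT20 (95.3% to 97.7%) and 94.8% at ZT8 (92.0% to 99.4%). Its ZT8 share was highest in ZT8 replicate 2, at 99.4%, where Sptbn4 held 0.0912%. Sptb held 2.51% at ZT20 and 2.61% at ZT8, and Sptbn4 held 1.39% and 2.28%.

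The 250 bases before and 50 after the annotated starts of these genes are shown because the genes differ in the same direction, and because the study is about the clock, whose factors bind known motifs. RefSeq (GRCm38.p6) gave 18 such windows for 7 of the 9 genes. The motifs searched on both strands were the E-box CACGTG of CLOCK and BMAL1, the D-box TTATGTAA or TTACGTAA, and the nuclear receptor half-site AGGTCA. Capitals mark a match, the sequences run 5′ to 3′ on the strand of the gene, and the build is GRCm38.p6.
Sptbn1 upstream start, chr11:30219723-30220022, minus strand: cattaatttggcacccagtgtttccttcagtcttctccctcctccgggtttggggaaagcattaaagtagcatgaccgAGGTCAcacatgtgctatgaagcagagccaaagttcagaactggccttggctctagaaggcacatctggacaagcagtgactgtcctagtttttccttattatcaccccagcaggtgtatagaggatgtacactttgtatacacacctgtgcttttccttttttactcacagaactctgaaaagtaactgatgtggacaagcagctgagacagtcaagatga
Sptbn1 downstream start, chr11:30198208-30198507, minus strand: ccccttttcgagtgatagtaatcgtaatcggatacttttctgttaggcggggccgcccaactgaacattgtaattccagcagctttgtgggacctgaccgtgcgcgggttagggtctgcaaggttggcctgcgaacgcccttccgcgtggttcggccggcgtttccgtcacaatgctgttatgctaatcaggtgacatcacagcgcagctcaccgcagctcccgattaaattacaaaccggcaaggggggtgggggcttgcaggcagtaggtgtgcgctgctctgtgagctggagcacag
Ank2 most upstream start, chr3:127499066-127499365, minus strand: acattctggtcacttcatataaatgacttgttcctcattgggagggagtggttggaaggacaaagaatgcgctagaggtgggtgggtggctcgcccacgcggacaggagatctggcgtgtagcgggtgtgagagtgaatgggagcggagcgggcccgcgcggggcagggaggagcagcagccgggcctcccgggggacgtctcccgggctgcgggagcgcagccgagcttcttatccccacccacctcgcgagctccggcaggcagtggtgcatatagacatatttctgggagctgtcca
Epb41l1 most upstream start, chr2:156420659-156420958, plus strand: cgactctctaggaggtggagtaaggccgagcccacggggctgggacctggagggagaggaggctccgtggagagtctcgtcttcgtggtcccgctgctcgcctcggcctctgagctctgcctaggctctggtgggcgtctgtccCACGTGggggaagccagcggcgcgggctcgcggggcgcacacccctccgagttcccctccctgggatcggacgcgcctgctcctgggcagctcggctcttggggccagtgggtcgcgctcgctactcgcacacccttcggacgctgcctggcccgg

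The E-box letters were found in 1 of the 18 windows, that of Epb41l1, where they begin at position -106 from the start, and 7.15% of 32851 RefSeq windows of the same length hold them. AGGTCA was found in 3 windows, at position -172 from the upstream start of Sptbn1 and before 1 start each of Sptbn4 and Epb41l3, beside 16.3% of all windows. The last bases of that Epb41l3 window were not found near the start of any GENCODE M21 transcript of the gene. The same held for the Ank2 window chr3:126943337-126943636. The D-box letters were in 0 of the 18 windows and in 1.06% of all windows. The starts of Sptbn1 differ in composition: the downstream window has 21 CpG dinucleotides and the upstream one has 2, beside a median of 7 over all windows. The gene-level TPM does not tell which start was used.

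Ankyrins tie spectrin to the membrane. Ank2 (ENSMUSG00000032826, chromosome 3) encodes ankyrin-B, which works with beta-II spectrin along axons and in axonal transport. Its values were 204, 213, 252 and 259 TPM in ZT20 replicates 1 to 4 and 78.7, 95.2 and 72.8 TPM in ZT8 replicates 1 to 3. The groups were far apart, with the lowest ZT20 sample 2.14 times the highest ZT8 sample. The means of 232 ± 27.4 TPM at ZT20 against 82.2 ± 11.6 TPM at ZT8 gave a fold of 2.82 and a log2 difference of 1.49 (SE 0.14), the largest among the 9 genes and ranked 304th of 14800.

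Ank3 (ENSMUSG00000069601, chromosome 10) encodes ankyrin-G, the organiser of the axon initial segment and of sodium channel clusters at nodes. It was at 75.6, 88.8, 77.3 and 82.1 TPM in the ZT20 samples and at 29.1, 42.1 and 22.9 TPM in the ZT8 samples. The groups did not overlap, and the ZT8 samples spread more widely than the ZT20 samples. The means were 80.9 ± 5.90 TPM at ZT20 against 31.3 ± 9.79 TPM at ZT8, with a log2 difference of 1.38 (SE 0.20).

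Ank1 (ENSMUSG00000031543, chromosome 8) encodes ankyrin-R, the ankyrin of red blood cells, which some neurons also use. It was low, at 8.01, 7.13, 8.60 and 5.59 TPM in the ZT20 samples and 1.82, 2.46 and 4.09 TPM in the ZT8 samples. The groups did not overlap, but the lowest ZT20 sample was only 1.37 times the highest ZT8 sample. The means were 7.33 ± 1.31 TPM at ZT20 against 2.79 ± 1.17 TPM at ZT8, with a log2 difference of 1.17 (SE 0.26). Erythroid markers summed to 2373 to 6691 TPM at ZT20 and 952 to 9546 TPM at ZT8, with 0 of 6 past the limma threshold. The highest sum was in ZT8 replicate 2, where Ank1 was at 2.46 TPM, and the part of erythroid RNA in the Ank1 values was not tested.

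The make-up of the ankyrins was alike in the samples of both groups. Ank2 held 72.3% ± 2.82 of the ankyrin TPM at ZT20 and 71.0% ± 2.52 at ZT8. Ank3 held 25.4% ± 2.65 and 26.5% ± 3.59, and Ank1 held 2.31% ± 0.506 and 2.51% ± 1.38. The shares overlapped between the groups for each of the 3 genes, while the sum was 320.3 ± 27.1 TPM at ZT20 and 116 ± 20.8 TPM at ZT8. The ratio of Ank2 to Sptbn1, the ankyrin and the spectrin that pair in the shaft, was 1.42 ± 0.243 at ZT20 and 1.35 ± 0.0509 at ZT8.

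**Figure D2:**
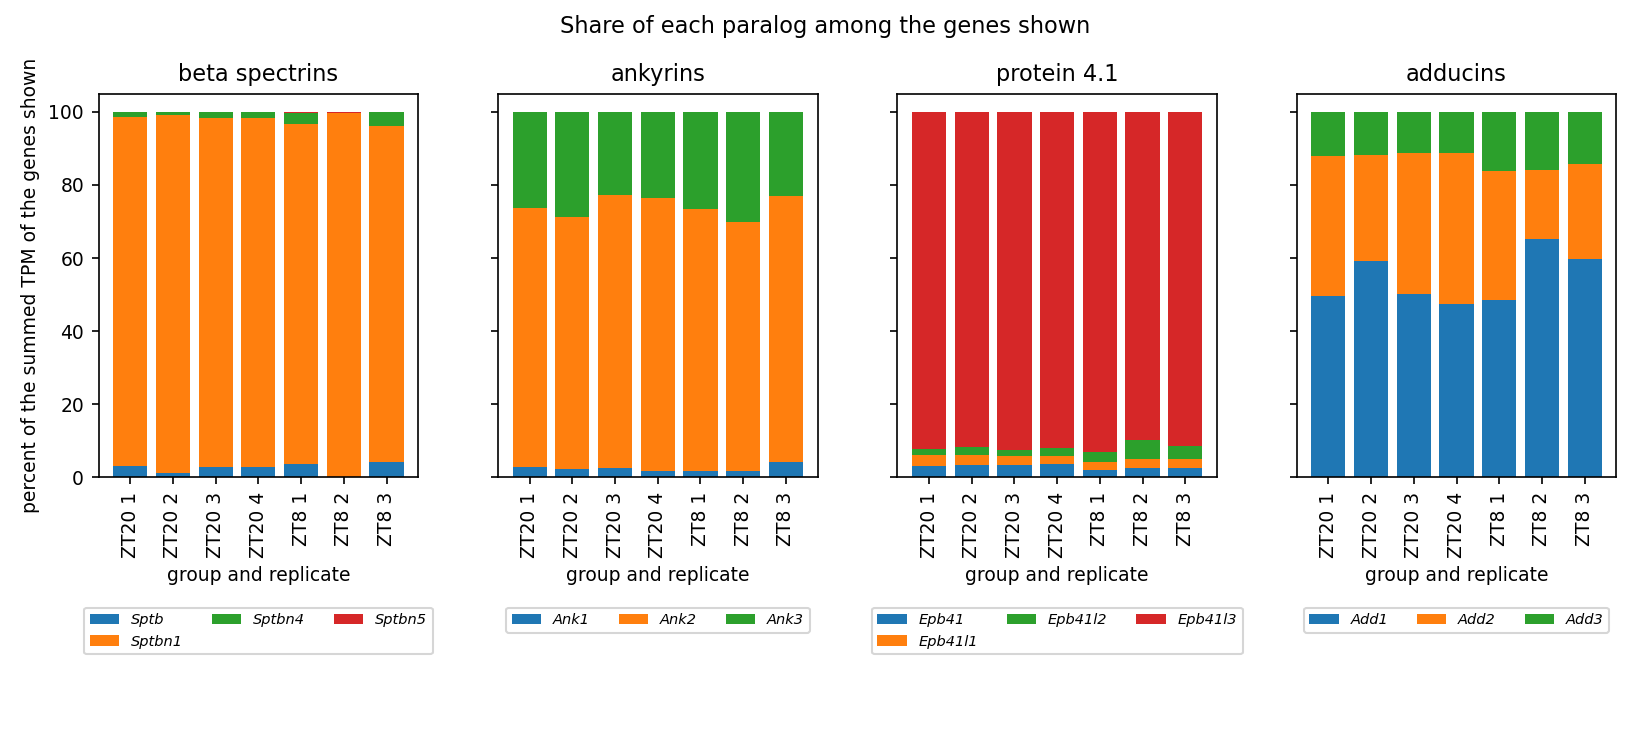
Stacked bars of each paralog as a percent of the summed TPM of the genes shown in its panel, 1 bar per sample, for 4 beta spectrins (Sptb, Sptbn1, Sptbn4 and Sptbn5), ankyrins, 4 protein 4.1 genes (Epb41, Epb41l1, Epb41l2 and Epb41l3) and adducins. Sptbn1, Ank2 and Epb41l3 are the largest part of the genes drawn in their panels in all 7 samples, and the Add3 share is 11.3% to 12.2% in ZT20 samples and 14.3% to 16.2% in ZT8 samples.

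Proteins of the 4.1 type strengthen the contact of spectrin with actin and hold membrane proteins at the junction. Epb41l3 (ENSMUSG00000024044, chromosome 17), also called 4.1B, was the most abundant of the 9 genes, at 572, 522, 661 and 738 TPM in the ZT20 samples and 429, 273 and 318 TPM in the ZT8 samples. The groups were separate, with the lowest ZT20 sample 1.22 times the highest ZT8 sample. The means were 623 ± 95.9 TPM at ZT20 against 339.9 ± 79.9 TPM at ZT8, with a log2 difference of 0.89 (SE 0.18).

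Epb41l1 (ENSMUSG00000027624, chromosome 2), or 4.1N, the form first described in neurons, was at 18.5, 15.4, 17.5 and 18.9 TPM in the ZT20 samples and 10.6, 7.50 and 8.59 TPM in the ZT8 samples. No ZT8 sample reached the ZT20 range. The means were 17.6 ± 1.55 TPM at ZT20 against 8.89 ± 1.57 TPM at ZT8, with a log2 difference of 0.92 (SE 0.17).

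Adducin caps the fast-growing end of the short actin filaments and recruits spectrin to them. Add1 (ENSMUSG00000029106, chromosome 5) was at 133, 136, 146 and 153 TPM in the ZT20 samples and 106, 76.7 and 116 TPM in the ZT8 samples. It had the smallest separation of the 8 genes whose groups did not overlap, 1.14 times between the nearest samples. The means were 142 ± 9.07 TPM at ZT20 against 99.7 ± 20.6 TPM at ZT8, and the log2 difference was 0.53 (SE 0.16), or 0.35 without ZT8 replicate 2. With scaling to the neuron markers it was 0.19 for Add1, 0.58 for Epb41l1 and 0.55 for Epb41l3, and with median-ratio scaling 0.28 for Add1. The ratio of Sptbn1 to Add1 was 1.03 to 1.36 in the ZT20 samples and 0.482 to 0.889 in the ZT8 samples. Sptbn1 was picked for its difference between these groups, so nothing is read from this ratio. The longest transcripts also differ, at 9107 nt for Sptbn1 and 4547 nt for Add1. A ratio within a sample keeps the trend with length that is given below.

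**Figure D3:**
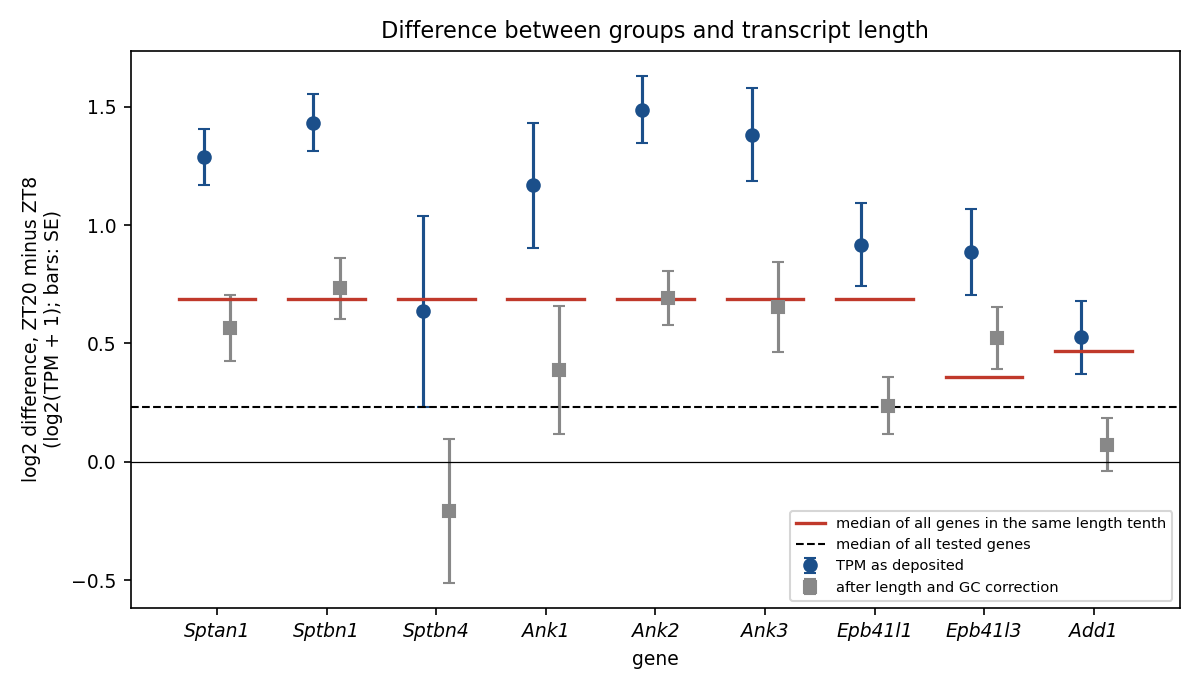
Log2 difference (ZT20 minus ZT8) of the 9 skeleton genes with the standard error of the limma fit as bars, as measured (blue) and after the trend with transcript length and GC content was removed (grey), with a red line at the median of all genes of the same length class and a dashed line at the median of all tested genes. Spectrins and ankyrins other than Sptbn4 lie between 1.17 and 1.49 as measured, and after the correction the values run from -0.21 for Sptbn4 to 0.73 for Sptbn1.

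TPM allows levels of different genes to be compared. From high to low, the ZT20 order was Epb41l3, Sptan1, Ank2, Sptbn1, Add1, Ank3, Epb41l1, Ank1 and Sptbn4, and no neighbours in that order overlapped between samples. At ZT8, Add1 stood in place 3, above Ank2 and Sptbn1. The ZT8 samples of Add1 (76.7 to 116 TPM) overlapped those of Ank2 (72.8 to 95.2 TPM), and those of Ank1 (1.82 to 4.09 TPM) overlapped those of Sptbn4 (0.0625 to 2.30 TPM), so these neighbours do not differ beyond their spread.

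The genes did not all vary together within a group, though some of them shared their highest or lowest sample. ZT8 replicate 2 was the highest ZT8 sample for Sptbn1, Ank2 and Ank3 and the lowest for Sptan1, Sptbn4, Epb41l1, Epb41l3 and Add1. ZT20 replicate 2 was the highest of its group for Sptan1, Sptbn1 and Ank3 and the lowest for Sptbn4, Epb41l1 and Epb41l3.

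These genes share long transcripts, a property that the choice did not use directly. Sptbn1 was picked by a difference that moved with length, as given below, so length is not independent of the choice. The longest annotated transcript was 14305 nt for Ank2, 9963 nt for Ank3, 9107 nt for Sptbn1, 8747 nt for Sptbn4, 8366 nt for Ank1, 8018 nt for Sptan1 and 6521 nt for Epb41l1. With the tested genes split by length into 10 classes of equal size, all 7 of these genes fall in the longest, class 10, while Add1 (4547 nt) falls in class 8 and Epb41l3 (4073 nt) in class 7.

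The difference between the groups moved with transcript length over all genes. In the shortest class its median was -0.027 on the log2 scale, in the next -0.13, and in the longest 0.69, where 36.5% of 1475 genes were higher at ZT20 at an adjusted p under 0.05. Within the longest class, Ank2 ranked 56th from the most positive, Sptbn1 77th, Ank3 99th, Sptan1 157th, Ank1 231st, Epb41l1 473rd and Sptbn4 791st of 1475. Sptbn4 thus lay below the median of genes of its length, and the other 6 lay above it. Epb41l3 ranked 179th of 1474 in its class, and Add1 667th of 1475 in its own.

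Once the trend of each sample with length and GC content was removed and all samples were set to a common mean, the log2 difference was 0.73 (SE 0.13) for Sptbn1, 0.69 for Ank2, 0.65 for Ank3, 0.56 for Sptan1 and 0.52 for Epb41l3. It was 0.39 for Ank1, 0.24 for Epb41l1 and 0.073 for Add1, and -0.21 for Sptbn4. The 4 largest corrected values were those of Sptbn1, Ank2, Ank3 and Sptan1. With each sample's own mean kept instead, the differences ran from 0.034 for Sptbn4 to 0.97 and all 9 were positive. In that setting the median over all genes was 0.23, above the value of Sptbn4, against -0.0083 with the common mean. The cause of the trend with length was not tested.

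**Figure D4:**
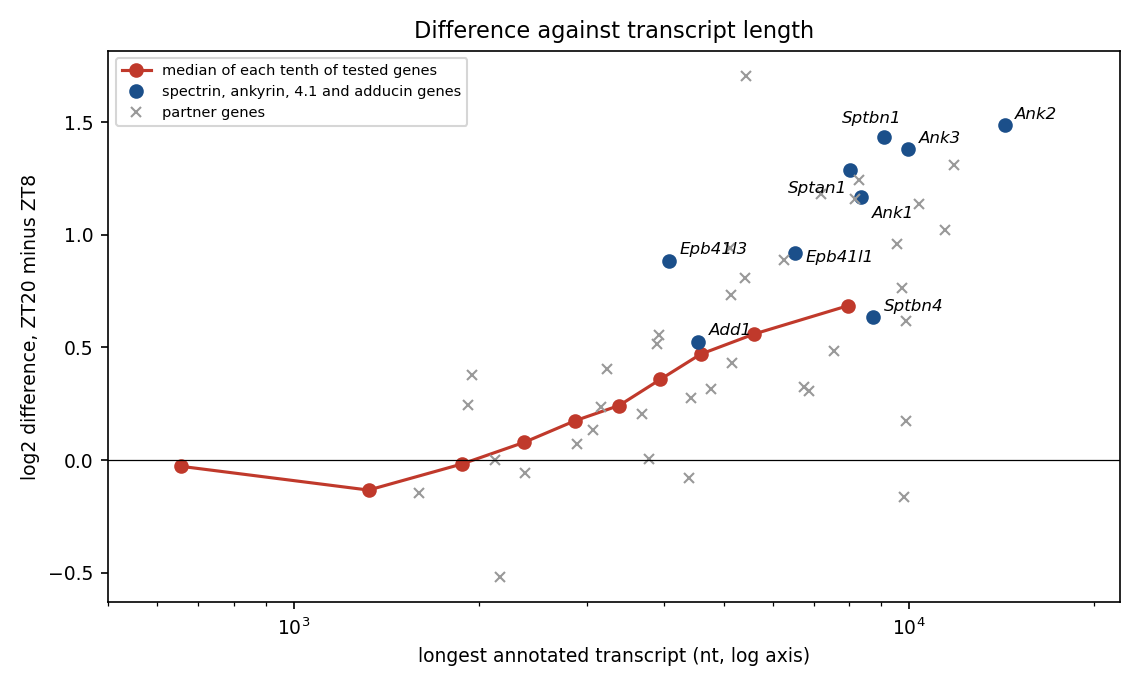
Log2 difference (ZT20 minus ZT8) against the length of the longest annotated transcript on a log axis, with the median of each length class of the tested genes as red points, the 9 skeleton genes in blue and the 37 tested partner genes as grey crosses. From class 2 on the medians climb from -0.13 to 0.69, and Sptbn4 is the only labelled gene below the line of medians.

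The share of calls in each direction depended on the scaling. With TPM as deposited, 78.1% of the 2433 genes past the threshold were higher at ZT20, but with median-ratio scaling 46.5% were, with quantile normalization 55.7%, with the length and GC correction 40.9%, and with scaling to the neuron markers 31.3%.

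The libraries that go against the sex label bear on every ZT20 mean. Without ZT20 replicates 3 and 4, the log2 differences of the 9 genes were all positive, with a lowest value of 0.45 and a median of 1.22. Without ZT20 replicates 2, 3 and 4, they were again all positive, with a lowest value of 0.44 and a median of 1.29. In both fits 0 genes of the whole table passed the adjusted threshold of limma, and 2425 and 1133 genes had an unadjusted p under 0.05.

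The partners of the skeleton were read from a list of 39 genes, of which 37 were tested and Sptbn5 and Slc8a1 were too low. At an adjusted p under 0.05 in limma, 8 of the 37 were higher at ZT20 and 0 were lower, beside 12.8% and 3.61% of all tested genes. An unadjusted limma p under 0.05 was found for 16 of the 37, beside 5122 of all 14800 tested genes. The median log2 difference of the 37 was 0.40, beside 0.23 over all genes. With the length and GC correction 3 of the 37 passed: Epb41, still higher at ZT20 (0.63), and Tmod2 (-0.51) and Cntnap2 (-0.85), which were lower and had not passed before, so the other 7 calls ended. When the correction kept each sample's own mean, Epb41, Nrcam and L1cam passed. Among the genes named below, scaling to the neuron markers ended the calls of Dmtn, Scn8a and Cast, testing all genes without a filter ended those of Dmtn, Cntnap1, Kcnq3 and Cast, and quantile normalization ended that of Cntnap1. With all genes uncorrected, without ZT20 replicate 3 the count was 2, without ZT20 replicate 4 it was 3, without ZT20 replicate 1 it was 5 and without ZT8 replicate 1 it was 14.

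Sptb, the erythroid and muscle beta-I chain, missed the threshold at a log2 difference of 1.14 (limma adjusted p = 0.0956), which was 0.62 without ZT8 replicate 2 or with quantile normalization, 0.31 with the length and GC correction, and 1.90 with a pseudocount of 0.1. The annotated span of Plekhg3 overlaps that of Sptb on the opposite strand, and whether they share reads was not tested.

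Of 5 other protein 4.1 genes, Epb41, the founding member from red blood cells, passed. It rose from 8.93 ± 0.723 TPM at ZT8 to 22.8 ± 4.51 TPM at ZT20, a log2 difference of 1.24 (limma adjusted p = 0.00686). This call held without any 1 of the 7 samples. Epb41l2, or 4.1G, the form of Schwann cells and other glia, was at 12.6 TPM at ZT20 and 13.3 TPM at ZT8 (log2 difference -0.082, limma adjusted p = 0.809). Its direction turned without ZT8 replicate 2 (0.048) and with sample weights (0.0027). Of the summed TPM of Epb41, Epb41l1, Epb41l2 and Epb41l3, Epb41l2 held 1.51% to 2.19% in the ZT20 samples and 2.67% to 5.24% in the ZT8 samples, with no overlap. Of the satellite glia markers, 3 of 7 were lower at ZT20 and 2 of 7 had a difference above 0. Myelinating Schwann cell markers, with 0 of 7 past the threshold, summed to 1151 to 1305 TPM at ZT20 and 954 to 1347 TPM at ZT8, so the groups overlapped. The part of glial RNA in this share was not tested.

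Neither of the other adducins passed in the fit used throughout. Add2, the beta chain enriched in brain and blood cells, had a log2 difference of 1.16 with overlapping samples (limma adjusted p = 0.0750). It was 0.67 without ZT8 replicate 2 and 0.44 with the length and GC correction, and among other settings it passed without ZT8 replicate 1 (1.55, limma adjusted p = 0.0359) and with array weights (0.86, limma adjusted p = 0.0447). For Add3, the broadly expressed gamma chain, the log2 difference was 0.27 (limma adjusted p = 0.402), and it turned to -0.064 with scaling to the neuron markers and to -0.11 with the length and GC correction. Within the adducins the share of Add3 was 11.7% ± 0.386 at ZT20 and 15.4% ± 0.994 at ZT8, without overlap. The longest transcript was 4426 nt for Add3 and 8182 nt for Add2, and the part of the trend with length in this share was not tested.

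Of 9 genes of the short actin filaments (dematin, tropomodulins, tropomyosins and actins), only Dmtn passed. Dmtn, or dematin, which bundles actin at the spectrin junction, was at 287 ± 25.8 TPM (ZT20) against 167 ± 46.4 TPM (ZT8), with a log2 difference of 0.81 (limma adjusted p = 0.0234). The call was lost without ZT20 replicate 1, 3 or 4 or ZT8 replicate 3, and with the length and GC correction the difference was 0.24. The median log2 difference of the 9 was 0.24, close to that of all genes.

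Of 16 tested membrane proteins bound by ankyrins or protein 4.1, 5 passed, all higher at ZT20, beside 12.8% of all tested genes, and the median log2 difference of the 16 was 0.69. Long transcripts prevailed among them: 8 of the 16 fall in length class 10 and 4 in class 9, whose medians over all genes were 0.69 and 0.56, with 36.5% and 27.1% of genes past the threshold as higher. Cntnap1, the Caspr of the paranodal junction, which protein 4.1B anchors, was among the partners that passed. It rose from 10.7 ± 6.47 TPM at ZT8 to 32.3 ± 6.24 TPM at ZT20, a log2 difference of 1.71 (limma adjusted p = 0.0330), which was 1.09 without ZT8 replicate 2 and 1.11 with the length and GC correction. The annotated spans of Plekhh3 and Ccr10 overlap that of Cntnap1 on the opposite strand, and whether they share reads was not tested. Without ZT20 replicate 1, 3 or 4, Cntnap1 did not pass.

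A pair of nodal channel genes whose products bind ankyrin-G were higher as well. Kcnq3, a subunit of the M-current potassium channel, was at 4.13 ± 0.587 TPM (ZT20) against 1.11 ± 0.514 TPM (ZT8) (log2 difference 1.31, limma adjusted p = 0.0153). Scn8a, the Nav1.6 sodium channel of mature nodes, was at 25.4 ± 5.31 TPM and 11.8 ± 0.680 TPM (log2 difference 1.02, limma adjusted p = 0.0126). Both calls were lost without ZT20 replicate 3, that of Kcnq3 also without ZT20 replicate 4, and that of Scn8a also with scaling to the neuron markers (limma adjusted p = 0.0584). With the length and GC correction the difference fell to 0.59 for Kcnq3 (limma adjusted p = 0.173) and to 0.24 for Scn8a (limma adjusted p = 0.352). The others that passed, named here after their values were seen, were the ankyrin-binding adhesion molecules L1cam (0.94) and Nrcam (0.89). The call of L1cam was lost without ZT20 replicate 3 or 4, and that of Nrcam held without any single sample.

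Of the calpain genes and calpastatin, 1 of 4 passed. This was Cast, calpastatin, the natural inhibitor of the calpains that cut spectrin, at 140.3 ± 17.0 TPM (ZT20) against 84.9 ± 17.5 TPM (ZT8) (log2 difference 0.73, limma adjusted p = 0.0243). It was lost without ZT20 replicate 1, 3 or 4, it was 0.40 with scaling to the neuron markers and 0.29 with the length and GC correction, and Erap1 overlaps Cast on the opposite strand. The proteases Capn1 and Capn2 and the shared small subunit Capns1 had log2 differences of 0.13, 0.40 and -0.15, and none passed.

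**Figure D5:**
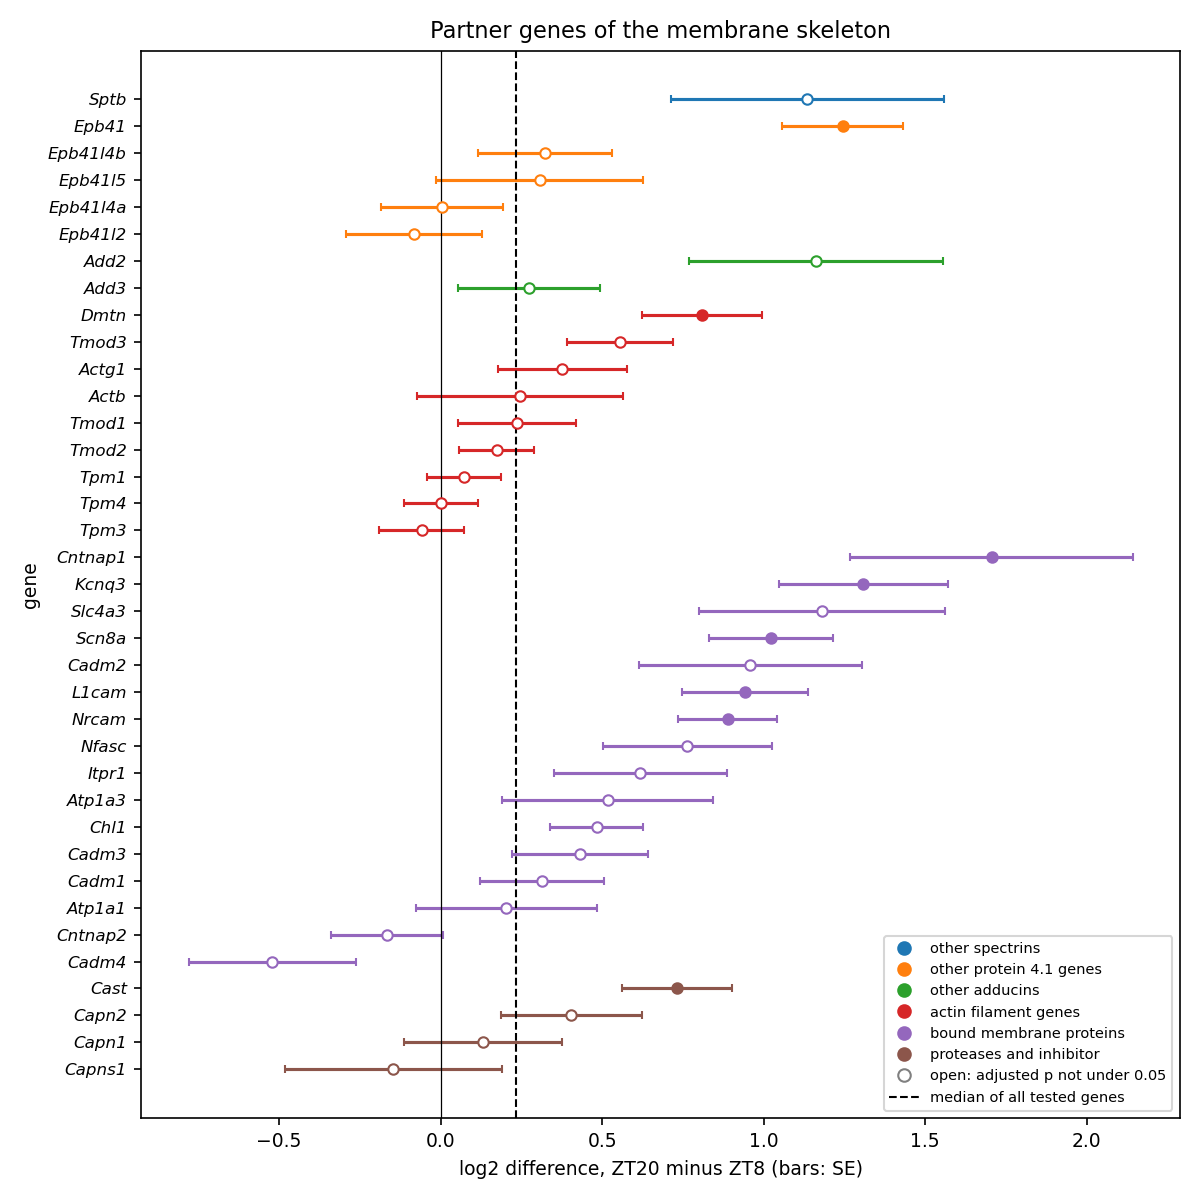
Log2 difference (ZT20 minus ZT8) of the 37 tested partner genes coloured by role, with the standard error of the limma fit as bars, filled points for the 8 genes at an adjusted p under 0.05, open points for the others and a dashed line at the median of all tested genes. All 8 filled points lie above 0, and 32 of the 37 genes are positive, beside 9821 of all 14800 tested genes.

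The profiles most like that of Sptbn1 were searched among the 8105 genes that averaged 10 TPM or more, by the root mean square difference of log2(TPM + 1) over the 7 samples after each gene's own mean was removed. The nearest were Kif2a (0.0789), a microtubule depolymerising kinesin, Fam120a (0.102), Dpysl2 (0.106), the growth cone protein CRMP2, Ubr4 (0.111) and Agtpbp1 (0.112), a tubulin deglutamylase. Ank3, Ank2 and Sptan1 followed at places 27, 29 and 30. Epb41l1, Epb41l3 and Add1 came much later, at places 427, 748 and 1540. For Ank2 the nearest were Arfgef3 (0.0443), Kif1b (0.0610), a kinesin of axonal transport, Uba6 (0.0730), Zyg11b (0.0744) and Scn7a (0.0857). Among the skeleton genes, Sptbn1 came 29th, Ank3 54th, Sptan1 150th, Epb41l1 431st, Epb41l3 563rd and Add1 1635th. All 10 of the nearest genes share the 7 libraries and the difference between the groups, so the measure describes likeness only.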

How the data were processed

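RNA from 7 samples was made into libraries with the NEBNext single cell and low input kit, per the labels' protocols. The deposited table holds TPM per gene, in which the authors had already divided by transcript length and by the library total. FastQC 0.11.9, Trim Galore 0.6.6, Salmon 1.6.0 and DESeq2 1.34.0 and the build GRCm39 are named, without roles, per the submitters' processing notes. Counts and depth were not used here, so no count test was run.

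The 9 genes, the partner list, the marker lists and the tests were chosen with earlier results of these data known. Genes were taken by symbol (1281 of 54309 rows have none). Values were analysed as log2(TPM + 1) for the 14800 genes that averaged 1 TPM or more, with limma 3.58.1 in R 4.3.3 (moderated test with a trend, two-sided, Benjamini-Hochberg adjustment over all 14800). This limma step was also run on simulated data, and the outcome is not reported here. Named genes are the 9, their paralogs, up to 3 called partners per role with the largest difference, and the 5 profiles nearest to Sptbn1 and to Ank2; exceptions are marked. A few genes of the lists are not reported here. Length and GC content came from GENCODE M21 (GRCm38) for 14745 tested genes, and the trend was removed per sample by loess with a span of 0.3. Promoter windows came from RefSeq on GRCm38.p6.

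Genes that overlap the 9 on either strand reached at most 4.89 TPM in any sample, and their means over the 7 samples were at most 4.38% of the mean of the gene they overlap; 2 overlapping miRNA genes, Gm44365 and Gm44494, were not analysed here. Libraries carried numbers at ZT20 and letters at ZT8, so library naming and group cannot be told apart. Nothing in the labels pairs samples of the same replicate number, and they were not treated as pairs. Of the other marker lists, the sums at ZT20 and at ZT8 were 115 to 157 and 160 to 370 TPM for macrophages (1 of 8 lower), 4.27 to 6.60 and 0.680 to 6.40 TPM for endothelium (0 of 2 tested), 79.7 to 109 and 48.5 to 84.0 TPM for mural cells (0 of 3), 77.7 to 108 and 84.0 to 197 TPM for fibroblasts (0 of 4) and 107 to 295 and 364 to 706 TPM for plasma cells (1 of 3 lower). No listed marker of these lists was at 0 in all samples. Their part in the results was not tested.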

Additional observations from a re-analysis of the deposited data

Results flagged for a closer look

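Among 36 results tested, 5 had a ZT20 sample that lay apart from the other 3, where about 1 in 20 would do so by chance (1.8 of 36). In 4 of them it was ZT20 replicate 2. Sptbn1 was at 184.594 TPM there, above 157 to 161 TPM in the other 3, and its share of the sum of Sptb, Sptbn1, Sptbn4 and Sptbn5 was 97.6912%, above 95.3% to 95.6%. Dmtn was at 248.842 TPM, below 296 to 306 TPM. Cntnap1 was at 22.985 TPM, below 34.7 to 36.4 TPM. In ZT20 replicate 4, the ratio of Sptan1 to the same sum was 2.00294, below 2.15 to 2.17 in the other 3. In each case the gap to the nearest sample took between 0.837 and 0.880 of the group's whole range. ZT20 replicate 2 also has Xist together with Y-linked transcripts, and ZT20 replicate 4 has almost no Y-linked transcripts; the part of that in these values was not tested.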

How the results depend on the processing

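Of all genes, 2433 passed in limma. The count was 1178 with no filter, 1319 with the length and GC correction (540 higher and 779 lower), 1574 when that correction kept each sample's own mean (an alternative added, and a centring chosen, after seeing the data), 2150 with neuron marker scaling (672 higher and 1478 lower), 3899 with array weights, 4079 at an adjusted p under 0.10, and 624 (without ZT20 replicate 3) to 3055 without 1 sample. For the 9 genes, 7 became 4 with neuron marker scaling, 4 with the length and GC correction, and 4 (without ZT20 replicate 3) to 8 without 1 sample; the contrast chose these genes, so nothing is read from their counts. For the partners, 8 became 4 with no filter, 3 with either correction, 15 at 0.10, and 2 to 14 without 1 sample. Without the 2 or the 3 ZT20 libraries that go against the sex label, 0 genes passed in limma (unadjusted p under 0.05 for 2425 and 1133 genes, 9 and 3 of them partners); in the second fit the lone ZT20 sample is assumed to vary like ZT8. The replicate block gave 1174 genes, 5 of the 9 and 7 partners (Kcnq3 and Scn8a no longer passed, at limma adjusted p = 0.0690 and 0.0523, and Add2 did, at 0.0498). The replicate block with the length and GC correction gave 374, 1 and 0. In that fit 7 partners had an unadjusted limma p under 0.05, beside 3244 of all 14745 genes tested. Same-numbered samples did not deviate together (r = -0.014, 0.15 and 0.083 across genes), and not every sample correlated best with its own number. Direction turned for Sptbn4 with the length and GC correction (-0.21, or -0.22 with the replicate block), for Epb41l2 with array weights (0.0027) and without ZT8 replicate 2 (range without 1 sample -0.22 to 0.048), and for Add3 with neuron marker scaling (-0.064), the correction (-0.11) and the correction with the replicate block (-0.15). Fewer samples were fitted where libraries were left out; the other causes were not tested. The 7 samples and the unknown depth limit the precision.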

Other observations

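A processed pseudogene annotated inside Tmod3, Gm48789, was listed at 48.5, 83.7, 25.2 and 24.2 TPM in ZT20 replicates 1 to 4 and at 0, 4.29 and 1.28 TPM in ZT8 replicates 1 to 3. It was chosen after its values were seen. Tmod3, a tropomodulin that caps the slow-growing end of actin filaments, averaged 40.2 ± 3.60 TPM over 4 ZT20 samples against 27.3 ± 5.22 TPM over 3 ZT8 samples (± SD), and narrowly missed the threshold (limma adjusted p = 0.0511); it passed with a filter of at least 5 TPM and without ZT8 replicate 1. Whether the overlapping pair shares reads was not tested, and shared reads cannot be assigned from these values.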
